A study of Mus musculus with 12 samples.

Results

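The expression of 10 genes of insulin and IGF1 growth signalling was followed in RNA sequencing of mouse hearts. They are Igf1, Igf1r, Insr, Irs1, Irs2, Akt1, Akt2, Mtor, Foxo1 and Foxo3, chosen by name as the ligand, receptors, adaptors, kinases and FOXO transcription factors at the core of the pathway. All 10 were found among the 54186 gene entries of the deposited table, and all 10 were among the 15226 genes that had enough counts to be tested. The study sequenced 12 whole-heart samples in 4 groups of 3, crossing a genotype with voluntary wheel running. Flox mice carried floxed Cited4 alleles, and KO mice came from a cross of that line with aMHC-cre mice, in which the cardiomyocyte-restricted alpha myosin heavy chain promoter drives the recombinase. Cited4 encodes a transcriptional co-regulator without a DNA-binding domain of its own. The KO deletion is therefore limited to cardiomyocytes by design, and the other cells of the heart are meant to keep the gene. Whole-heart counts of Cited4, given below and near 0 in KO, cannot show in which cells it was lost. Every group carried the floxed allele, and no group carried the cre with an intact Cited4, so a KO library differs from a Flox library by the transgene as well as by the deletion. Mice of each genotype were sedentary or had a running wheel for 8 weeks. Age, sex and strain are not stated in the labels used here.

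Insulin and IGF1 bind related receptor tyrosine kinases, which phosphorylate the IRS adaptor proteins. These recruit PI3 kinase, whose lipid product brings AKT to the membrane, and AKT in turn activates mTOR complex 1 and expels the FOXO factors from the nucleus. In the heart the IGF1 branch is known for physiological growth, such as that seen with endurance training, and the FOXO factors for switching on genes of protein breakdown and of fasting metabolism. Most of this signalling runs through phosphorylation, which RNA levels do not measure.

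Promoter sequence is shown for the members whose values carry the description that follows, or whose promoter held one of the motifs searched. Each is the 250 bases upstream of a transcription start, 5′ to 3′ on the gene's own strand, from RefSeq (GRCm38.p6). Capitals mark 3 motifs, each searched on both strands: the E-box CACGTG, the FOXO binding core TGTTTAC and the insulin response element core TGTTTTG. Irs1 (chr1:82291440-82291689, minus strand) and Irs2 (chr8:11008930-11009179, minus strand) encode the adaptors. Igf1 (chr10:87860861-87861110, plus strand) encodes the ligand, Foxo3 (chr10:42276696-42276945, minus strand) a FOXO factor and Akt1 (chr12:112674885-112675134, minus strand) a kinase.
Irs1 promoter: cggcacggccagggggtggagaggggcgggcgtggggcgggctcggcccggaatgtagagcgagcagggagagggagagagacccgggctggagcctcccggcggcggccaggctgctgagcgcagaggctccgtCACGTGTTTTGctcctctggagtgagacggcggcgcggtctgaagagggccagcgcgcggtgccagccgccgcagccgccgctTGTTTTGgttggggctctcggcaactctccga
Irs2 promoter: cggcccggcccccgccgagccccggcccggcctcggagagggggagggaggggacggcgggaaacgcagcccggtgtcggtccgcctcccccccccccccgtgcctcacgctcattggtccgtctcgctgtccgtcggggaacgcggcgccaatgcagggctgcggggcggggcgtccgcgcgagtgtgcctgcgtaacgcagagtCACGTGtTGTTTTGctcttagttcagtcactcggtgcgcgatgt
Igf1 promoter: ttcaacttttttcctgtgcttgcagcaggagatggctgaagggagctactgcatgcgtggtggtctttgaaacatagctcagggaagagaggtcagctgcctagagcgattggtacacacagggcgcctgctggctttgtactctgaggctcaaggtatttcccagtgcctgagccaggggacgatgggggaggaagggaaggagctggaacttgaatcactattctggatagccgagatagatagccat
Foxo3 promoter: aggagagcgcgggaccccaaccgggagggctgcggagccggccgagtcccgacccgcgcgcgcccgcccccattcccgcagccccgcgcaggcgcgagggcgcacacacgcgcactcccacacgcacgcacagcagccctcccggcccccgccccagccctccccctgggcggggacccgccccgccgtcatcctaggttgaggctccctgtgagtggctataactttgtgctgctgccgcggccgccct
Akt1 promoter: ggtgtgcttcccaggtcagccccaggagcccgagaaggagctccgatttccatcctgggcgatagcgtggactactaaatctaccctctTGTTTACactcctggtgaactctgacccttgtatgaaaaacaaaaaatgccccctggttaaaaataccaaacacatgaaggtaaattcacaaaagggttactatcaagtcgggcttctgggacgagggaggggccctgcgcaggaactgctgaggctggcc
The tables matched 13 promoters of 9 members, and Insr had no entry. Irs1 and Irs2 were the 2 members with an E-box, and both also held the insulin response element core. The E-box began 115 bases before the Irs1 start and 44 bases before the Irs2 start. In Irs1 the core overlaps the end of the E-box and a further copy lies nearer to the start, and in Irs2 the core follows the E-box after 1 base. An E-box was present in 6.02% of all 32851 promoters of this length and the insulin response element core in 5.56%. The FOXO core, present in 3.17%, was found only in 1 of the 2 Akt1 promoters. A match describes these letters and not binding.

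Depth was similar across libraries, at 17465432 to 20467300 counts, of which 21 to 27.2% came from 13 genes of the mitochondrial genome. Cited4 counts were 276, 192 and 295 for the sedentary and 406, 261 and 431 for the exercise label in Flox, against 5, 2 and 0 and then 3, 0 and 0 in KO, so the genotype labels matched the targeted gene. The treatment words of the labels could not be checked in this way, and the title codes carry E for sedentary and S for exercise. The treatment is therefore called by its label. If the codes were right, every exercise difference and the interaction would change sign, the genotype differences within a treatment would swap names, and the genotype difference averaged over treatment would stay. Cardiomyocyte markers such as Myh6 and Tnnt2 summed to between 46381 and 66379 counts per 1000000 (CPM) in every library. Atrial markers such as Nppa and Myl7 varied much more, from 219 to 21700 CPM, and the highest sums, 11248 and 21700 CPM, were in KO libraries labelled sedentary. Myl7 was at 0 to 1.27 CPM in the 5 libraries with the lowest sums and at 126 to 2514 CPM in the other 7. In those 5, Nppa at 128 to 214 CPM made up most of the sum. The samples are called whole hearts, and how much atrial tissue each one held was not tested.

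No member passed an adjusted p of 0.05 in any of the 7 comparisons (edgeR quasi-likelihood test, Benjamini-Hochberg adjustment over the 15226 genes, which is also the source of every adjusted p given without another tool). Few genes passed at all. The share of all genes passing was 0.125% for KO over Flox with the sedentary label and 0.00657% with the exercise label. For labelled exercise over sedentary it was 0% in Flox and 0.0197% in KO. Averaged over the other factor it was 0.0525% for genotype and 0.0263% for treatment, and for the interaction, which is the treatment difference in KO minus that in Flox, it was 0%. DESeq2, run as a second tool, passed 1 member, Igf1, for KO over Flox with the sedentary label and averaged over treatment, and 0 members in the other 5 comparisons. Of the genes to which DESeq2 gave an adjusted p, it passed 2.35% for KO over Flox with the sedentary label and 0.0364% with the exercise label, 0.311% for the treatment difference in Flox and 0.653% in KO. For the averages it passed 0.91% by genotype and 0.273% by treatment, and for the interaction 0.309%. The labels do not say which animal gave which library, so a p-value here reflects only how far these samples spread.

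At an unadjusted p under 0.05, 3 of the 10 members differed between KO and Flox under the sedentary label, with Igf1 higher and Insr and Foxo3 lower, where 13.5% of all genes reached that level. With the exercise label the count was 2 of 10, Insr and Foxo3, both higher in KO, against 7.94% of all genes. Between treatments it was 3 of 10 in Flox (Insr, Akt1 and Foxo3, all lower under the exercise label), against 7.41%, and 1 of 10 in KO (Igf1r, lower), against 10.6%. The interaction reached it for 3 of 10, with Insr and Foxo3 above 0 and Igf1 below, against 9.88%. The averaged genotype difference reached it for Igf1 alone, against 11.6%, and the averaged treatment difference for Igf1r alone, against 8.45%. The median log2 fold change of the 10 members for KO over Flox was -0.04 with the sedentary and 0.21 with the exercise label, beside 0.00 and -0.01 over all genes. Of the 10 members, 9 lay above 0 with the exercise label and 4 with the sedentary label. These comparisons share libraries pairwise, so their values are not independent of each other.

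**Figure D1:**
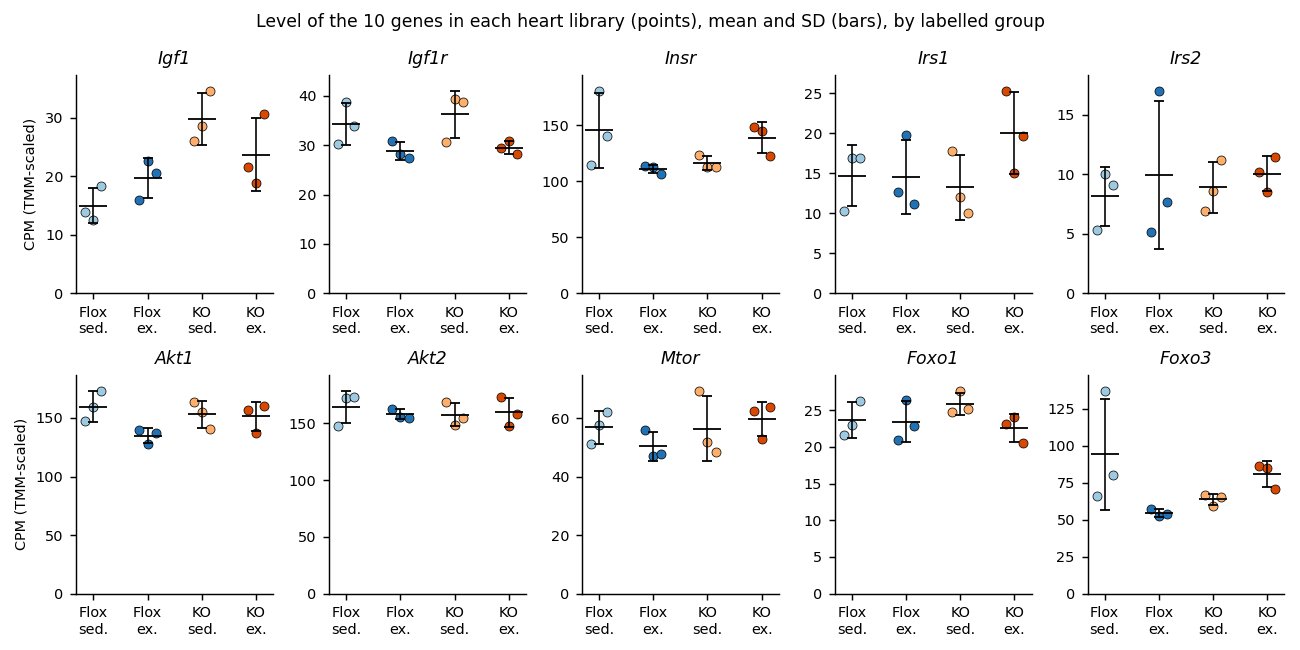
Level of each of the 10 genes (vertical axes, TMM-scaled CPM, each starting at 0) in the 12 libraries, by labelled group (sed., sedentary; ex., exercise), with points for libraries and bars for the mean and SD. The 3 KO libraries labelled sedentary lie above the 3 Flox libraries of that label for Igf1, at 26 to 34.6 against 12.6 to 18.3 CPM, and 1 Flox library labelled sedentary stands at 137 CPM for Foxo3 and 181 CPM for Insr.

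**Figure D2:**
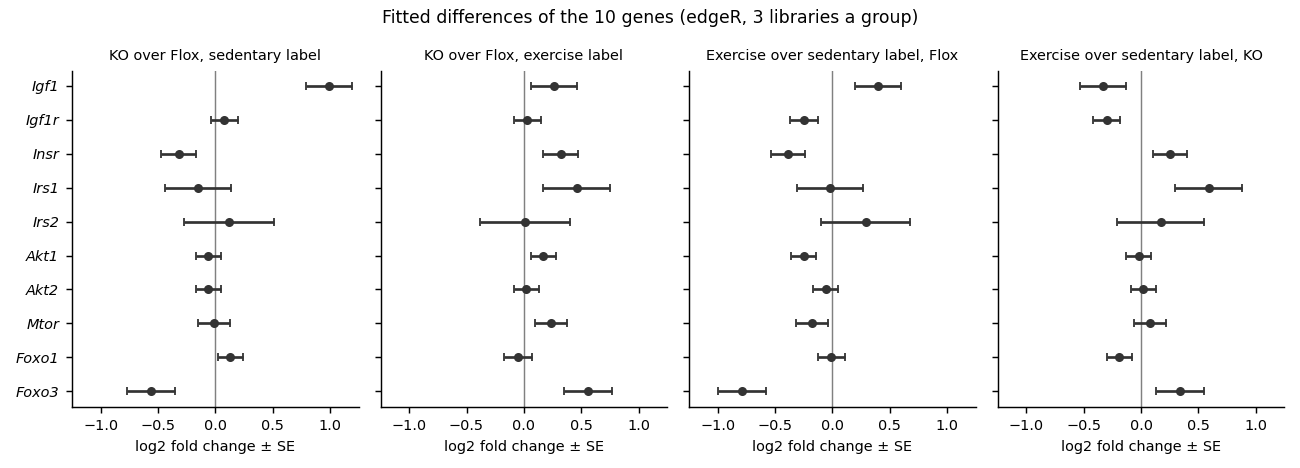
Fitted log2 fold change (horizontal axes) with its standard error for the 10 genes in the 4 pairwise comparisons, from edgeR with 3 libraries a group. Igf1 lies at 0.99 in the first of these, KO over Flox with the sedentary label, and Foxo3 at -0.56 there and at 0.56 under the exercise label.

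Igf1 encodes the growth factor itself, which the heart makes locally as well as receiving it from the liver (ENSMUSG00000020053.18; GRCm38 chromosome 10, 87858265 to 87937042, plus strand). Igf1 was at 13.9, 12.6 and 18.3 CPM in the Flox libraries labelled sedentary and at 16, 22.6 and 20.6 CPM in those labelled exercise. In KO, Igf1 was at 26, 28.6 and 34.6 CPM (sedentary label) and 21.6, 18.8 and 30.7 CPM (exercise label). All 3 KO libraries labelled sedentary lay above every Flox library of either label, while the KO libraries labelled exercise overlapped the Flox libraries of their own label. Group means were 14.9 ± 3.02 and 19.7 ± 3.35 CPM in Flox and 29.7 ± 4.44 and 23.7 ± 6.21 CPM in KO, for the sedentary and exercise labels (SD, n = 3 each). Of all genes, 18.4% had groups that did not overlap for KO against Flox under the sedentary label, and Igf1 was the 1 member of 10 that did.

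KO over Flox under the sedentary label came to a log2 fold change of 0.99 ± 0.20 (SE) for Igf1, or 1.99-fold, with an adjusted p of 0.0826 in edgeR. This call depended on the procedure: DESeq2 gave the same 0.99 with an adjusted p of 0.00167, and a fit with the atrial marker level as a covariate gave 0.61 ± 0.18 with an adjusted p of 0.84, the smallest and largest of the alternatives run. The latter adjusted p depends on all genes of the covariate fit. Atrial sums were themselves highest in KO libraries labelled sedentary, so that fit cannot fully separate genotype from atrial level. In edgeR without the covariate, leaving out a library kept the Igf1 value between 0.86 and 1.17. The edgeR call passed without KO labelled sedentary replicate 1 (adjusted p = 0.0316) and without KO labelled exercise replicate 3 (0.0386). The difference with the exercise label was 0.26 ± 0.20 (adjusted p = 0.757), and averaged over the treatment label it was 0.63 ± 0.14 (adjusted p = 0.167). Labelled exercise over sedentary gave 0.40 ± 0.20 in Flox and -0.33 ± 0.20 in KO, of opposite sign. The difference between them, the interaction, was -0.73 ± 0.28 with an adjusted p of 0.471.

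Markers of several cell types moved along with Igf1. The summed level of 8 fibroblast markers, among them Col1a1, Pdgfra and Dcn, was 918 to 984 CPM in Flox labelled sedentary and 1414 to 1602 CPM in KO labelled sedentary, with 8 of 8 markers above 0 in that comparison and 0 passing. The same sum overlapped widely with the exercise label, at 1112 to 2161 CPM in Flox and 1054 to 2211 CPM in KO. Macrophage markers, 8 of 8 above 0, summed to 246 to 287 CPM and 285 to 462 CPM in the Flox and KO libraries labelled sedentary. Cardiomyocyte markers, 8 of 8 below 0, summed to 63180 to 66379 and 46381 to 56183 CPM. Among them the mean of Myh6, the largest, was 29226 and 24431 CPM. That of Myl2 was 7196 and 4036 CPM, and that of Myl3 4425 and 2555 CPM. How far the cardiomyocyte sum follows the atrial share of a sample was not tested. Atrial markers, 10 of 10 above 0, summed to 290 to 4231 and 1599 to 21700 CPM. Adipocyte markers had the largest median log2 fold change of the 8 marker lists, 5.34, with 4 of 5 tested above 0. Adipoq, which encodes the fat hormone adiponectin, was at 0.413, 0.158 and 0.202 CPM in Flox and 6.13, 10.3 and 16.4 CPM in KO, and Cfd, the fat-derived complement factor D, at 1.3, 0.893 and 0.404 and 22.6, 36.6 and 44.7 CPM. Adipoq (5.40 ± 0.66, adjusted p = 0.009) and Cidec (5.36 ± 0.57, adjusted p = 0.0037), a lipid droplet gene, rose, and Plin1 and Cfd did not pass (adjusted p = 0.0826 for each). The exception was Fabp4, also known from endothelial cells, at 492 to 710 CPM in Flox and 407 to 512 CPM in KO (-0.29 ± 0.20). Without Fabp4 the adipocyte markers summed to 0.656 to 3.6 CPM in Flox and 48.5 to 89.7 CPM in KO under the sedentary label, and to 1.37 to 12.2 and 5.51 to 8.8 CPM under the exercise label, so the 3 KO libraries labelled sedentary stood above all others. In whole hearts, fewer cells of a type and less RNA per cell cannot be told apart, and the part of these markers in the Igf1 difference was not tested beyond the atrial covariate.

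Across the 12 libraries, on log2(CPM + 0.5), Igf1 ran against the cardiomyocyte sum (Pearson r = -0.90, permutation p = 2e-05; Spearman rho = -0.94, permutation p = 3e-05). The adjusted p was 0.0016 over the 80 relations of 10 genes with 8 marker lists, and r was -0.91 without the 2 libraries farthest from the median. With each group centred on its own mean, r was -0.76. The permutations here and below moved libraries freely between groups, so their p-values do not separate group differences from variation within groups. Against the fibroblast sum r was 0.79 (permutation p = 0.0022, adjusted 0.06) and rho was 0.91 (permutation p = 9e-05). It was 0.92 without the 2 farthest libraries and 0.81 within groups. Against the macrophage sum r was 0.73 (permutation p = 0.0078, adjusted 0.12), with 0.81 without the 2 farthest libraries and 0.77 within groups. Against the atrial sum r was 0.77 (permutation p = 0.0036, adjusted 0.072) and rho was 0.62 (permutation p = 0.037). The atrial r was 0.76 without the 2 farthest libraries and 0.77 within groups. Atrial sums fell into separate clusters, which a correlation over all 12 libraries does not take into account. The 5 libraries with sums of 219 to 319 CPM had 12.6 to 20.6 CPM of Igf1, and the 7 with 1599 to 21700 CPM had 18.3 to 34.6 CPM. Within those 7 r was 0.49 (exact permutation p = 0.27) and rho 0.29 (exact permutation p = 0.56), and r was -0.48 without the 2 farthest libraries, so the relation within them rests on those libraries. Every KO library labelled sedentary was in the higher cluster, at 1599, 11248 and 21700 CPM. Flox labelled sedentary had 290, 319 and 4231 CPM, with Igf1 at 13.9, 12.6 and 18.3 CPM in the same order. Genotype under the sedentary label and atrial level were thus confounded in part. In Flox labelled exercise and KO labelled exercise too, Igf1 was higher in each library of the higher cluster than in those of the lower.

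**Figure D3:**
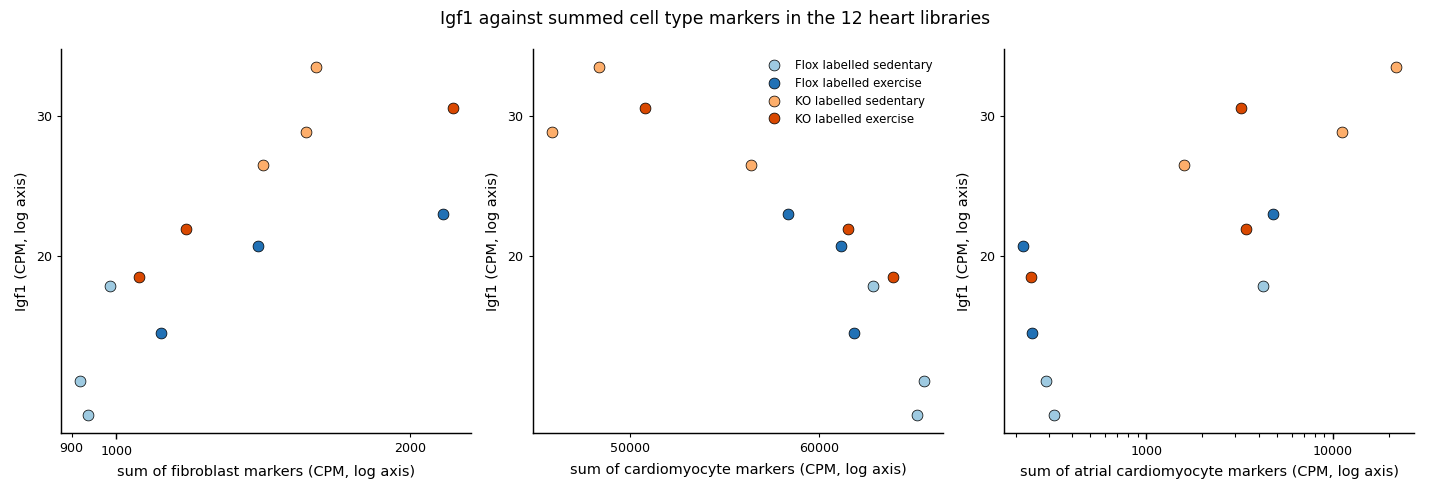
Igf1 (vertical axes, CPM, log axis) against the summed CPM of fibroblast, cardiomyocyte and atrial cardiomyocyte markers (horizontal axes, log axes) in the 12 libraries, with 1 point for each library coloured by labelled group. Igf1 is higher where the fibroblast sum is higher (r = 0.79) and lower where the cardiomyocyte sum is higher (r = -0.90), and the atrial sums run from 219 to 21700 CPM.

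Igf1r encodes the receptor that binds IGF1 with high affinity (ENSMUSG00000005533.10; GRCm38 chromosome 7, 67952827 to 68233668, plus strand). Igf1r was at 30.3, 38.7 and 33.8 CPM in the Flox libraries labelled sedentary and at 30.9, 28.2 and 27.4 CPM in those labelled exercise. In KO, Igf1r was at 30.7, 39.3 and 38.7 CPM (sedentary label) and 29.5, 30.8 and 28.3 CPM (exercise label). Exercise-labelled libraries lay at the low end in both genotypes, and a single sedentary-labelled library of each genotype lay within their range. The treatment difference averaged over genotype was -0.27 ± 0.08 (log2, SE), a fold of 0.828 with an unadjusted p of 0.00563 and an adjusted p of 0.473. It was -0.25 ± 0.12 in Flox and -0.30 ± 0.12 in KO, and the interaction was -0.04 ± 0.17 (adjusted p = 0.944). KO over Flox was 0.08 ± 0.12 (sedentary label) and 0.03 ± 0.12 (exercise label).

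Insr encodes the insulin receptor (ENSMUSG00000005534.10; GRCm38 chromosome 8, 3122061 to 3279617, minus strand). Insr was at 115, 181 and 141 CPM in the Flox libraries labelled sedentary and at 114, 113 and 107 CPM in those labelled exercise. In KO, Insr was at 124, 113 and 113 CPM (sedentary label) and 149, 145 and 123 CPM (exercise label). Every KO library labelled exercise was above every such Flox library, and in Flox every exercise-labelled library was below every sedentary-labelled one. Groups that did not overlap were found for 14.8% of all genes in the first of these comparisons and 14.1% in the second. The log2 fold change of KO over Flox was -0.32 ± 0.15 (sedentary label) and 0.32 ± 0.15 (exercise label), with adjusted p-values of 0.362 and 0.621. The interaction was 0.64 ± 0.21 (unadjusted p = 0.00836, adjusted p = 0.412). Flox labelled sedentary replicate 2, at 181 CPM, was the highest library, and without it the sedentary-label genotype difference was -0.13 and the interaction 0.45.

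Irs1 and Irs2 encode the main adaptors that carry the receptors' signal to PI3 kinase. Irs1 (ENSMUSG00000055980.2; GRCm38 chromosome 1, 82233101 to 82291416, minus strand) was at 10.3, 16.9 and 16.9 CPM in the Flox libraries labelled sedentary and at 12.6, 19.8 and 11.1 CPM in those labelled exercise. In KO, Irs1 was at 17.8, 12 and 10 CPM (sedentary label) and 25.3, 15 and 19.7 CPM (exercise label). All 4 groups overlapped, with the highest library in KO labelled exercise. The largest pairwise difference, labelled exercise over sedentary in KO, was 0.59 ± 0.29 (log2, SE; adjusted p = 0.502), and KO over Flox under the exercise label was 0.46 ± 0.29 (adjusted p = 0.716). Irs1 with the adipocyte sum was the other of the 80 marker relations to pass after adjustment, at r = -0.85 (permutation p = 0.00046, adjusted p = 0.018) and rho = -0.95 (permutation p = 2e-05). It was -0.95 without the 2 farthest libraries and -0.83 within groups. Fabp4 made up 85.1 to 99.9% of that sum, so the sum mostly follows that gene. Exons of Irs1 overlap those of Gm9747 on the opposite strand, and Irs1 had counts that were not whole in all 12 libraries, so its reads may be shared with that gene.

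Irs2 (ENSMUSG00000038894.7; GRCm38 chromosome 8, 10984681 to 11008458, minus strand) was at 5.31, 10 and 9.09 CPM in the Flox libraries labelled sedentary and at 5.19, 17 and 7.65 CPM in those labelled exercise. In KO, Irs2 was at 6.9, 8.55 and 11.2 CPM (sedentary label) and 10.2, 8.47 and 11.4 CPM (exercise label). The groups overlapped throughout, and Flox labelled exercise held both the lowest library and the highest. Its 4 pairwise log2 fold changes lay between 0.01 and 0.29 with standard errors of 0.38 to 0.39, the widest of the 10 genes, and its range over the libraries was 3.28-fold. Without Flox labelled exercise replicate 2, at 17 CPM, the treatment difference in Flox was -0.36 in place of 0.29. Irs2 exons overlap 9530052E02Rik on the opposite strand. Irs1 and Irs2, whose promoters printed above share both motifs, had r = 0.50 across the 12 libraries (permutation p = 0.095, rho = 0.48 with permutation p = 0.12, adjusted p = 0.39 over the 45 pairs of members), and 0.73 without the 2 libraries farthest from the Irs1 median.

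Akt1 and Akt2 encode the AKT kinases, of which Akt2 is known for the metabolic action of insulin and Akt1 for growth. Akt1 (ENSMUSG00000001729.14; GRCm38 chromosome 12, 112653821 to 112674884, minus strand) was at 147, 159 and 173 CPM in the Flox libraries labelled sedentary and at 140, 128 and 137 CPM in those labelled exercise. In KO, Akt1 was at 164, 155 and 141 CPM (sedentary label) and 157, 137 and 160 CPM (exercise label). In Flox the exercise-labelled libraries all lay below the sedentary-labelled ones, and in KO the groups overlapped. Between treatments in Flox, 14.1% of all genes had groups that did not overlap. The Flox treatment difference was -0.25 ± 0.11 (log2, SE), a fold of 0.843 (unadjusted p = 0.0394, adjusted p = 0.652), and the interaction was 0.23 ± 0.15 (adjusted p = 0.609). Akt2 (ENSMUSG00000004056.15; GRCm38 chromosome 7, 27591552 to 27640826, plus strand) was at 148, 172 and 173 CPM in the Flox libraries labelled sedentary and at 163, 156 and 155 CPM in those labelled exercise. In KO, Akt2 was at 169, 149 and 155 CPM (sedentary label) and 173, 148 and 158 CPM (exercise label). It was the steadiest of the 10 genes, with 1.17-fold between its lowest and highest library and pairwise log2 fold changes of -0.06 to 0.02, each with a standard error of 0.11.

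Mtor encodes the kinase of both mTOR complexes, which drive protein synthesis and restrain autophagy (ENSMUSG00000028991.15; GRCm38 chromosome 4, 148448611 to 148557683, plus strand). Mtor was at 51.1, 57.7 and 62.2 CPM in the Flox libraries labelled sedentary and at 56.2, 47.3 and 48 CPM in those labelled exercise. In KO, Mtor was at 69.4, 51.9 and 48.4 CPM (sedentary label) and 62.5, 53.1 and 63.8 CPM (exercise label). Each group overlapped each of the others, and the widest spread was within KO labelled sedentary, which held the highest library. KO over Flox was -0.01 ± 0.14 (sedentary label) and 0.24 ± 0.14 (exercise label) (log2, SE), with adjusted p-values of 0.979 and 0.686.

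Foxo1 and Foxo3 encode the transcription factors that AKT phosphorylates and keeps out of the nucleus. Foxo1 (ENSMUSG00000044167.6; GRCm38 chromosome 3, 52268336 to 52353221, plus strand) was at 21.6, 23 and 26.3 CPM in the Flox libraries labelled sedentary and at 20.9, 26.4 and 22.9 CPM in those labelled exercise. In KO, Foxo1 was at 24.7, 27.6 and 25.2 CPM (sedentary label) and 23.1, 24.1 and 20.5 CPM (exercise label). In KO the exercise-labelled libraries lay below the sedentary-labelled ones, as groups that do not overlap, which 13.1% of all genes showed, with a log2 difference of -0.19 ± 0.11 (SE; adjusted p = 0.554). In Flox the treatment groups overlapped (-0.01 ± 0.12). An antisense gene, Gm20402, overlaps the exons of Foxo1, and whether the counting used strand is not given in the sources used here.

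Foxo3 had the largest interaction of the 10 members (ENSMUSG00000048756.11; GRCm38 chromosome 10, 42181841 to 42276755, minus strand). Foxo3 was at 65.9, 137 and 80 CPM in the Flox libraries labelled sedentary and at 57.4, 52.7 and 53.7 CPM in those labelled exercise. In KO, Foxo3 was at 66.5, 59.4 and 65.5 CPM (sedentary label) and 86.5, 85.2 and 70.5 CPM (exercise label). In Flox every library labelled exercise was below every library labelled sedentary, in KO every one was above, and under the exercise label every KO library was above every Flox library. Of all genes, groups did not overlap for 14.1% in the first of these comparisons, 13.1% in the second and 14.8% in the third. Under the sedentary label KO and Flox overlapped for Foxo3. Labelled exercise over sedentary was -0.79 ± 0.21 in Flox (log2, SE; unadjusted p = 0.00254, adjusted p = 0.487) and 0.34 ± 0.21 in KO (adjusted p = 0.564). The interaction was 1.13 ± 0.29 (unadjusted p = 0.00226), and it did not pass after adjustment in edgeR (0.379) or DESeq2 (0.0571). KO over Flox was -0.56 ± 0.21 (sedentary label) and 0.56 ± 0.21 (exercise label), with adjusted p-values of 0.265 and 0.601.

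Flox labelled sedentary replicate 2, at 137 CPM, decided much of the size of these Foxo3 values. Without it the treatment difference in Flox was -0.42 ± 0.13 and the genotype difference under the sedentary label was -0.19 ± 0.13. The interaction was 0.76 ± 0.17 without it, with an adjusted p of 0.833, and its standard error was smaller than with all libraries. An adjusted p depends on all genes of a fit. The largest with a library left out was 0.833 for the Igf1 and Insr interactions too. The difference between KO and Flox under the exercise label, which does not use Flox labelled sedentary replicate 2 except for the shared spread, was 0.57 ± 0.11 without that library.

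Foxo3 and Insr varied together across the libraries. On log2(CPM + 0.5) Pearson r was 0.97 (permutation p = 1e-05, the smallest that 100000 permutations can give) and Spearman rho 0.92 (permutation p = 0.0001), with an adjusted p of 0.00045 over the 45 pairs. Pearson r was 0.91 without the 2 libraries farthest from the Insr median and 0.95 with each group centred on its mean. The centred value draws mostly on Flox labelled sedentary, where the SD was 37.6 CPM for Foxo3 and 33.7 CPM for Insr. In the other groups the SD was 2.5 to 8.86 CPM for Foxo3 and 3.49 to 13.8 CPM for Insr. The centred r therefore says little of those groups. Akt1 and Mtor were the next pair, at r = 0.81 (permutation p = 0.0019, adjusted 0.043; rho = 0.84, permutation p = 0.0014), with 0.78 without the 2 libraries farthest from the Akt1 median and 0.87 within groups. No other pair passed after adjustment. The lowest was Igf1 with Insr, at r = -0.46 (permutation p = 0.13; rho = -0.43).

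**Figure D4:**
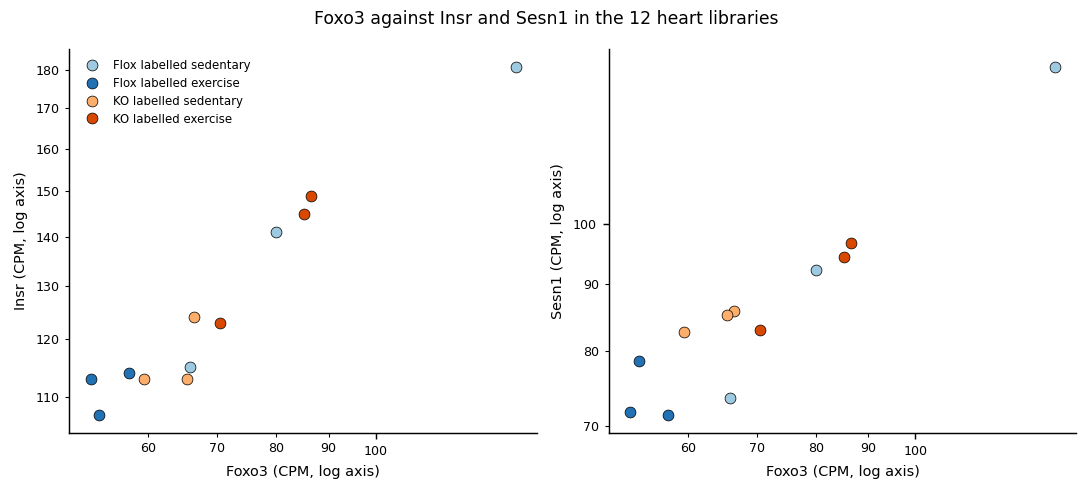
Foxo3 (horizontal axes, CPM, log axis) against Insr and against Sesn1 (vertical axes, CPM, log axes) in the 12 libraries, with 1 point for each library coloured by labelled group. Insr ranges from 107 to 181 CPM and Foxo3 from 52.7 to 137 CPM. The top of both is 1 library, Flox labelled sedentary replicate 2, which is also the highest for Sesn1 at 132 CPM. The next Foxo3 value is 86.5 CPM, and the 3 Flox libraries labelled exercise are the lowest for Foxo3.

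Among 10442 genes with a mean of at least 5 CPM, the genes with a pattern most like each member over the 12 libraries were named by Pearson r, as a description. For Foxo3 they were Insr (0.97) and Sesn1 (0.95), a stress-induced gene known as a FOXO target, and for Insr they were Foxo3 and Ccdc141 (0.93). For Igf1 they were Gne (0.97), the enzyme that starts sialic acid synthesis, and Ccdc80 (0.96), which encodes an extracellular matrix protein. Igf1r was followed most closely by Rere (0.94) and Tmem222 (0.93), Irs1 by Ttc17 (0.94) and Jmy (0.91), and Irs2 by C3ar1 (0.89), a complement receptor of myeloid cells, and Bmp2k (0.83). For Akt1 the genes were Abcd2 (0.93) and Usp46 (0.90), for Akt2 Dcaf1 and Hnrnpul1 (both 0.89), for Mtor Ube3b and Zdhhc5 (both 0.95), and for Foxo1 Abca9 (0.83) and Slc26a11 (0.82). The libraries also differed in depth and in cell type markers, and the part of either in these likenesses was not tested.

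Levels were compared between genes per length, as CPM divided by the kilobases of merged exons in GENCODE vM21. Merged exons join all coding transcripts of a gene, so their length may differ from that of the transcripts present. In CPM, Akt2 was above Akt1, at means of 160 and 150. The merged length was 5995 bases from 11 coding transcripts for Akt2 and 3092 bases from 4 for Akt1. The order of this pair per kb therefore rests on these lengths. Akt1 was the highest, with a mean level of 48.4 CPM per kb (41.3 to 55.9 over the libraries), followed by Akt2 at 26.7 (24.7 to 28.9) and Insr at 13.6 (11.4 to 19.3). The ranges of these 3 did not overlap. Foxo3 came next at 9.69 CPM per kb, overlapping Insr above it and Mtor, at 6.37, below it. Igf1r at 2.82, Foxo1 at 2.75, Igf1 at 2.22, Irs1 at 1.71 and Irs2 at 1.46 CPM per kb formed the low end, all below the range of Mtor, and each of these overlapped its neighbour in the order. In the KO libraries labelled sedentary Igf1 reached 3 ± 0.448 CPM per kb, beside 3.17 ± 0.417 for Igf1r and 2.98 ± 0.176 for Foxo1 (SD, n = 3 each). In the Flox libraries of that label it stood at 1.51 ± 0.305, below Igf1r at 3.01 ± 0.368 and Foxo1 at 2.73 ± 0.278.

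The wider pathway list held 81 genes in 11 roles, of which 80 were tested, 70 of them not among the 10 members. None of these 70 passed the adjusted edgeR test in any of the 7 comparisons. At an unadjusted p under 0.05 the counts for KO over Flox were 13 of 70 with the sedentary label, where 13.5% of all genes reached that level, and 6 of 70 with the exercise label, against 7.94%. The treatment difference gave 8 of 70 in Flox, against 7.41%, and 10 of 70 in KO, against 10.6%. Genotype averaged gave 7 of 70, against 11.6%, treatment averaged 5 of 70, against 8.45%, and the interaction 14 of 70, against 9.88%. DESeq2 passed 3 of them for KO over Flox with the sedentary label, where it passed 2.35% of all genes. It passed 1 each for the treatment difference in Flox (0.311% of all genes), in KO (0.653%) and averaged (0.273%), and 0 in the other 3 comparisons. Those were Igfbp4, Igfbp5 and Grb14 in the first comparison, Ddit4 for the treatment difference in Flox and averaged, and Igfbp7 for that in KO.

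Ligands and the IGF binding proteins, which carry and buffer IGF1 outside cells, were the role that lay highest in KO over Flox under the sedentary label. Of 8 tested, 7 were above 0, with a median log2 fold change of 0.93 and 6 at an unadjusted p under 0.05, against 13.5% of all genes, none passing the adjusted edgeR test. Igfbp5 was at 79.3, 86.4 and 120 CPM in Flox and 144, 226 and 257 CPM in KO under that label, and Igfbp4 at 95.9, 90.1 and 103 and 128, 203 and 224 CPM. The KO libraries lay above the Flox libraries for both, by 1.13 ± 0.30 and 0.94 ± 0.25 on the log2 scale, each with an adjusted p of 0.159. Of all genes, 18.4% had groups that did not overlap there. In DESeq2 Igfbp5 and Igfbp4 rose, with adjusted p-values of 0.00776 and 0.013. With the exercise label the same role had 3 of 8 above 0 and a median of -0.04, and between treatments in KO 7 of 8 were below 0 with a median of -0.59. The smallest p in that last comparison was that of Igfbp7 (-0.63 ± 0.17, adjusted p = 0.269), with Igfbp6 (-0.61 ± 0.21, 0.384) and Foxo4 (0.27 ± 0.10, 0.392) next. The fibroblast, macrophage, atrial and adipocyte markers given beside Igf1 lay the same way under the sedentary label. Between treatments in KO, 5 of 5 adipocyte markers were below 0, with a median of -3.48 and 1 passing, as were 10 of 10 atrial markers (median -2.35), while 3 of 8 fibroblast markers were above 0 (median -0.12). The part of these markers in the values of the role was not tested.

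Receptors and adaptors had medians nearer to 0 in that comparison, at -0.04 and -0.06. Grb14, an adaptor that inhibits the insulin receptor, was at 145, 129 and 114 CPM in Flox and 102, 84.6 and 81 CPM in KO under the sedentary label, with every KO library lower (-0.54 ± 0.15, adjusted p = 0.166). Of all genes, 18.4% had groups that did not overlap in that comparison. Grb14 fell in DESeq2 (adjusted p = 0.0344). Averaged over the treatment label Grb14 was at -0.36 ± 0.11 (adjusted p = 0.243), with Igfbp4 at 0.47 ± 0.18 and Igfbp5 at 0.53 ± 0.21. All 6 genes of PI3 kinase and PDK1 were below 0 for KO over Flox with the sedentary label, with a median of -0.12, and 5 of 6 above 0 under the exercise label, with a median of 0.05, and none passed.

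Genes that FOXO factors are known to activate took both signs. Of 12, 9 were below 0 for KO over Flox with the sedentary label (median -0.19) and 11 above 0 under the exercise label (0.11). For labelled exercise over sedentary, 11 were below 0 in Flox (-0.14) and 11 above 0 in KO (0.19). The interaction was above 0 for 10 of 12, with a median of 0.37 beside -0.02 over all genes and 4 genes at an unadjusted p under 0.05, against 9.88% of all genes. Fbxo32, the muscle ubiquitin ligase atrogin-1, was at 81.3, 109 and 65.6 CPM in Flox and 132, 152 and 117 CPM in KO under the exercise label, and the groups did not overlap (0.65 ± 0.16, adjusted p = 0.601). Of all genes, 14.8% had groups that did not overlap there. The Fbxo32 interaction was 0.85 ± 0.23 (adjusted p = 0.393). Klf15, a glucocorticoid-induced regulator of fasting metabolism, was at 44.9, 63.1 and 40.3 CPM in Flox labelled sedentary and 31.5, 30.7 and 32 CPM in Flox labelled exercise, lower in every library of the latter (-0.66 ± 0.17, adjusted p = 0.456), with an interaction of 0.87 ± 0.24 (0.393). Between treatments in Flox, 14.1% of all genes had groups that did not overlap. Sesn3 (0.42 ± 0.15) and Klf15 (0.49 ± 0.17) had the next smallest p after Fbxo32 for KO over Flox under the exercise label.

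Of the mTOR branch, Ddit4, which restrains mTOR complex 1 under stress, was at 16.7, 17.2 and 11.3 CPM in Flox labelled sedentary and 25.8, 48.9 and 36.6 CPM in Flox labelled exercise. All the exercise-labelled Flox libraries were higher, by 1.30 ± 0.35 on the log2 scale (adjusted p = 0.489 in edgeR and 0.0207 in DESeq2). Of all genes, 14.1% had groups that did not overlap in that comparison. Averaged over genotype the Ddit4 difference was 0.95 ± 0.24 (adjusted p = 0.455), followed by Phlpp1, an AKT phosphatase (-0.25 ± 0.08), and Foxo6 (-0.57 ± 0.22). Ulk1, the autophagy kinase that mTOR holds back, was at -0.46 ± 0.12 for the treatment difference in Flox (adjusted p = 0.487). For the interaction, Foxo4 came after Fbxo32 and Klf15, at 0.44 ± 0.14 (adjusted p = 0.412).

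**Figure D5:**
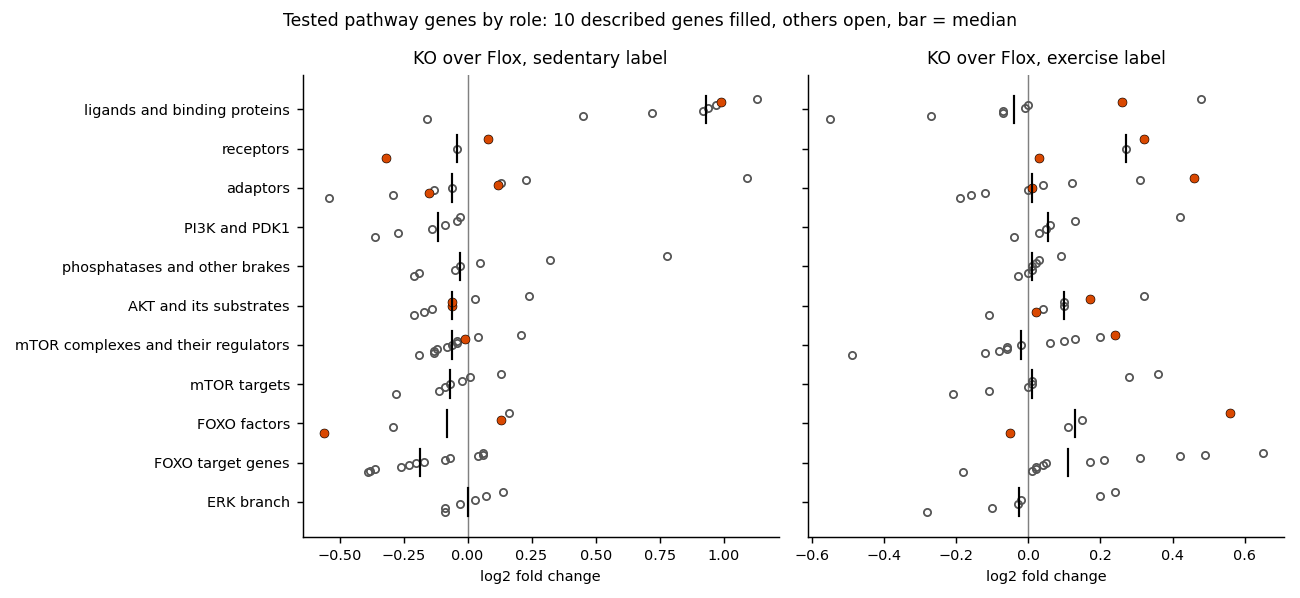
Log2 fold change of KO over Flox with the sedentary and the exercise label (horizontal axes) for the 80 tested pathway genes by role, with the 10 described genes filled, the others open and a bar at each role's median. Ligands and binding proteins have a median of 0.93 (sedentary label) and -0.04 (exercise label), and FOXO target genes -0.19 and 0.11.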

How the data were processed

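RNA of 12 whole hearts was depleted of ribosomal RNA before sequencing, per the labels' protocols. The authors deposited expected counts, which are estimated counts summed to gene symbols and are unscaled, and the submitters' processing notes name FastQC and Salmon without a version. They also list mm9 and mm10 as builds without saying what each was used for. For settings and strand handling, nothing is stated in the sources used. Of 55874 entries, 1688 named no gene and were left out (at most 0.186% of a library). Counts were rounded, since 29.9 to 34.9% of nonzero values were not whole, filtered by edgeR's filterByExpr and scaled by TMM. CPM is per 1000000 scaled counts in the genes tested. All 12 libraries were fitted together in edgeR 4.0.16 (quasi-likelihood, R 4.3.3), with groups from the genotype and treatment words, and p-values were adjusted over all 15226 genes. DESeq2 1.42.0, other scaling, no filter, a replicate block, an atrial covariate and leaving out each library were alternatives. The fit was tested on simulated data.

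The members and gene lists were chosen with earlier results of these data known. All 10 members are named. Of the other pathway genes, each comparison names the 3 with the smallest p, and Sesn1 entered by likeness. Correlations used scipy 1.17.1. The adipocyte sum without Fabp4 and the atrial clusters were chosen after the values were seen. Of the marker lists, endothelial markers summed to 608 to 936 CPM, erythroid to 412 to 702, adipocyte to 334 to 714 (nearly all Fabp4) and skeletal muscle to 1600 to 2548, with Myh4 at or under 0.1 CPM in every library. Ckm, at 1552 to 2275 CPM, made up most of the skeletal muscle sum, and Myh1 and Myh2 reached at most 0.118 and 0.166 CPM. Gene positions are from GENCODE vM21 (GRCm38), and promoters are credited to RefSeq. Low counts can limit precision, and Irs2, the lowest member in CPM, had 90 to 324 counts per library. The part of depth in the spread of Irs2 was not tested.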

Additional observations from a re-analysis of the deposited data

How the results depend on the processing

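Groups of 3 limit what these tests can show, and Irs2 had the widest standard errors of the 10 members in the pairwise comparisons. The 10 members gave 1190 log2 fold changes under 17 alternatives, and 1109 kept their sign and their side of the threshold. Those that came to pass, 6 in all, belong to Igf1, whose sedentary-label genotype difference also passed without the filter (adjusted p = 0.0449) and with the replicate block, and whose genotype average passed in DESeq2 (adjusted p = 0.0122). In these settings 1 member passed in place of 0, and over the libraries left out the count was 0 to 1.

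Replicate numbers did not pair the libraries: over 18 same-numbered pairs the deviations from group means had r of -0.34 to 0.35, and 5 of 12 libraries correlated best with their own number. With the number as a replicate block, Igf1 for KO over Flox with the sedentary label was 1.00 ± 0.15 (adjusted p = 0.0246), 37 genes in place of 19 passed there, 19 in place of 8 for the genotype average and 2 in place of 4 for the treatment average. The block changed no other member's call.

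Counts over all genes depended strongly on the procedure. KO over Flox under the sedentary label passed 370 genes in DESeq2, 120 without the filter and 3 with the atrial covariate, and 2 to 479 with a library left out. Under the exercise label it passed 10, 4 and 1, and 1 to 2. The treatment difference passed 44 (DESeq2), 2 (no filter) and 0 to 2 genes in Flox and 110, 30 and 0 to 566 in KO, with 1 under relative log expression scaling and 0 with the atrial covariate. The genotype average passed 158, 49 and 1, and 4 to 34. The treatment average passed 46, 10 and 1, 2 under relative log expression scaling, and 0 to 12. The interaction passed 47 and 1, and 0 to 2. Leaving out KO labelled sedentary replicate 1 gave 479, 566, 34 and 12. The cause was not tested.

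Signs turned in 75 values of 27 results, none past the threshold, in results whose value as reported was at most 0.29 in size, and the turned values reached 0.61 in size. With the atrial covariate KO over Flox under the sedentary label was -0.61 for Irs2 and 0.01 for Mtor, Irs2 was -0.06 under the exercise label and 0.55 for the interaction, the treatment difference of Akt1 in KO was 0.00, and the genotype average was 0.03 for Insr, -0.03 for Irs1, -0.33 for Irs2 and -0.04 for Foxo1. That average was 0.00 for Insr under the replicate block, and -0.00 for Foxo3 in DESeq2 and under relative log expression scaling. With a library left out, KO over Flox under the sedentary label ran from -0.00 to 0.17 for Igf1r, -0.44 to 0.01 for Irs1, -0.11 to 0.30 for Irs2 and -0.20 to 0.08 for Mtor. Under the exercise label it ran from -0.00 to 0.09 for Igf1r, -0.30 to 0.65 for Irs2, -0.04 to 0.07 for Akt2 and -0.13 to 0.05 for Foxo1. The treatment difference in Flox ran from -0.32 to 0.14 for Irs1, -0.36 to 0.60 for Irs2 and -0.12 to 0.07 for Foxo1, and in KO from -0.06 to 0.05 for Akt1, -0.04 to 0.09 for Akt2 and -0.01 to 0.27 for Mtor. The genotype average ran from -0.08 to 0.09 for Insr, -0.09 to 0.38 for Irs2, -0.06 to -0.00 for Akt2, -0.00 to 0.08 for Foxo1 and -0.10 to 0.19 for Foxo3. The treatment average ran from -0.07 to 0.13 for Igf1, -0.14 to 0.03 for Insr, -0.08 to 0.39 for Irs2, -0.06 to 0.01 for Akt2 and -0.10 to 0.05 for Mtor, and the interaction from -0.14 to 0.04 for Igf1r and -0.42 to 0.54 for Irs2.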
